A study of Nematostella vectensis with 96 samples.

Results

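The comparison described here sets sea anemones kept on a daily cycle of red light and darkness against sea anemones kept in constant darkness (dark:dark, DD). *Nematostella vectensis* is a burrowing sea anemone without eyes, and each library was made from the RNA of 1 whole adult. The animals were lab-bred descendants of a Maryland population, had lived under their light condition for 1 month, had no food for 2 days before sampling, and were not pooled. Light went on at Zeitgeber time (ZT) 0 and off at ZT12 in the red cycle, and 4 animals of each condition were taken at ZT2, 6, 10, 14, 18 and 22. DD animals were fed and had their water changed in the dark. How many dishes held the animals of a condition was not given, so light and dish cannot be told apart. Of the 48 libraries labelled red light:dark or dark:dark, 45 were used (23 red and 22 DD) out of 96 in the whole series, the rest of which came from blue and green light cycles. Depth excluded 3 libraries of under 100000 counts, namely red ZT6 replicate C (1455 counts), DD ZT6 replicate D (25683 counts) and DD ZT22 replicate C (289 counts). The test covered the 9720 of 23927 gene models whose mean count over the 45 libraries reached 3.

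Animals sense light through opsins and cryptochromes, and light that arrives on a daily cycle sets the phase of their circadian clock. In bilaterian animals the transcription factors CLOCK and CYCLE drive genes whose products repress them in turn, cryptochromes among those products in vertebrates, and PAR-bZIP factors relay the rhythm to other genes. Constant darkness takes this daily cue away, so a cycle of 1 color set against darkness asks which transcripts differ when that color is the only timing signal.

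Libraries of both conditions were sequenced to similar depth. Total counts ran from 205800 to 626300 with a median of 398700 in red light, and from 138400 to 591500 with a median of 355400 in DD (log2 totals compared by a two-sided permutation test, p = 0.382). Among pairs of libraries of 1 condition and time, the chi-square per degree of freedom had a median of 5.01, so libraries differed by more than counting error. With 1 library for each animal, differences between animals and differences in library preparation cannot be told apart. Pairs with red ZT2 replicate B, red ZT10 replicate D or DD ZT2 replicate A had 7.39 to 21.2, against 3.52 to 7.38 for the other 54 pairs, and results that rest on those libraries are also given without them. Per 100000 counts, 10480 genes were detected in the median red library and 10160 in the median DD library (permutation test, p = 0.00264). Lists of genes for stinging cells, gland cells, muscle, cilia, nerve and germ line each had a summed level above 0 in every library.

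Averaged over the 6 times, 1178 of 9720 genes (12.1%) differed between red light and DD at 10% FDR by edgeR's quasi-likelihood test. Of these, 601 (6.18%) were higher and 577 (5.94%) were lower in red light. Most differences were small. The median called gene was 1.47-fold higher or 1.45-fold lower, and 15 of the higher and 41 of the lower genes passed a log2 fold change of 1 in size. For 0 of the 9720 genes did the red and DD animals fail to overlap, so each difference is a shift between 2 overlapping groups. Among the genes called, 64.1% of the higher and 65% of the lower had 1 sign at all 6 times, beside 12.7% of all genes tested, although the averaged difference that chose them contains those 6 values. A gene counted more deeply was called more often, with 5.18% called in the lowest of 4 equal bins of mean count and 23.5% in the highest. Because the RNA came from whole animals, fewer cells of a type and less RNA per cell cannot be told apart in any of these differences.

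The direction of the calls depended in part on scaling. With library totals in place of TMM factors, 1199 genes were called, 887 higher and 312 lower, and the median of all genes moved to 0.08 on the log2 scale, against 0.00 with TMM. Without the 3 libraries that stood apart, 1188 genes were called, of which 980 were among the 1178. With the number of genes detected as a covariate, 1043 were called and 790 were shared. Each of these shared genes kept its sign.

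**Figure D1:**
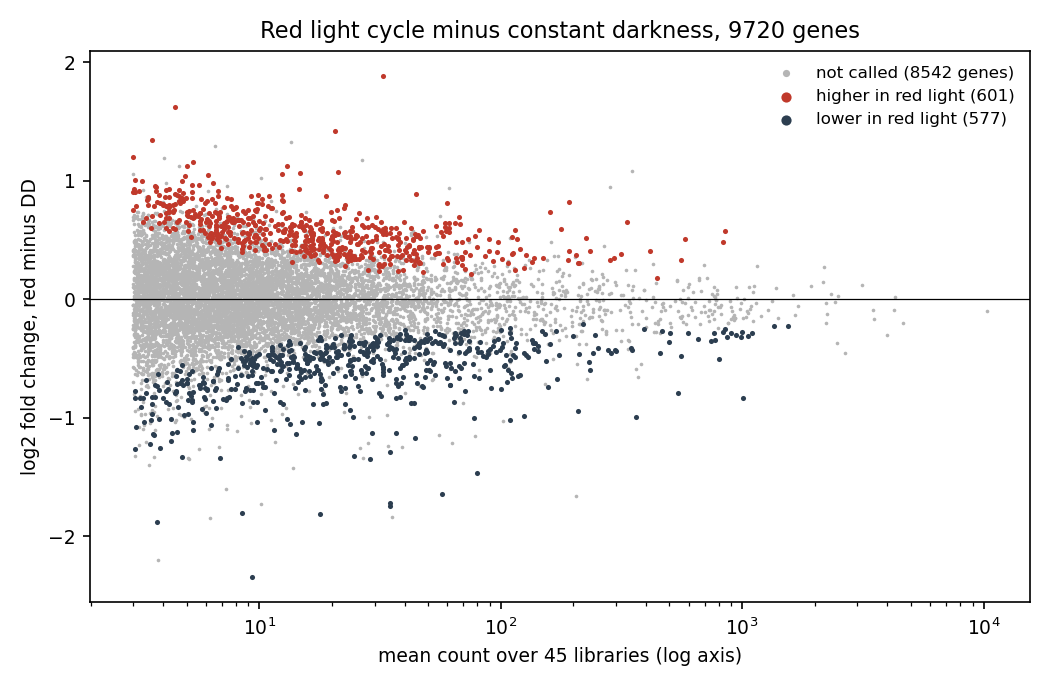
Log2 fold change of red light minus DD (vertical axis) against the mean count over 45 libraries (horizontal log axis), 1 point for each of 9720 genes, with the 601 genes called higher in red light in red, the 577 called lower in dark blue and the others in grey. Calls reach smaller fold changes where counts are higher, and both directions are about equally frequent.

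Of the genes higher in red light, the smallest p belonged to YTH domain containing 1 (NVE444), whose mammalian counterpart is a nuclear reader of methylated adenosines in RNA. Its lowest, median and highest levels were 89.8, 155 and 295 CPM (counts scaled to a library of 1000000) in red animals, against 42.7, 79.5 and 123.5 CPM in DD animals. All red animals lay above the DD median, although the lowest of them were inside the DD range. The difference was 0.89 ± 0.12 (log2 units ± standard error; adjusted p = 6.98e-06), a 1.85-fold higher level. Proline-rich coiled-coil 2A (NVE16634) had 419.8, 690.1 and 1000 CPM in red light, against 333, 499 and 624 CPM in DD (log2 fold change 0.52 ± 0.08, adjusted p = 0.000123). 22 of 23 red animals were above the DD median of that gene. A gene annotated as cytadherence (NVE23664) had 117.5, 195 and 340.2 CPM in red light and 66.2, 114.9 and 184 CPM in DD (log2 fold change 0.81 ± 0.13, adjusted p = 0.000144), and again all red animals were above the DD median.

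Membrane associated guanylate kinase (NVE20476), a scaffold at cell contacts, had 34.1, 60.03 and 152 CPM in red light, against 13.5, 33.5 and 71.4 CPM in DD (log2 fold change 0.87 ± 0.15, adjusted p = 0.000305). A tight junction protein (NVE21893) had medians of 104.3 CPM in red light and 72.4 CPM in DD (log2 0.55 ± 0.10, adjusted p = 0.000574). For transformer-2 (NVE14881), a regulator of splicing first known from Drosophila, the medians were 99.8 CPM in red light and 67.03 CPM in DD (log2 0.59 ± 0.11, adjusted p = 0.000574). A PHD finger protein (NVE16837), of a family that binds histone tails, had medians of 101.4 CPM in red light and 67.8 CPM in DD (log2 0.57 ± 0.10, adjusted p = 0.000298). Between 22 and 23 of the 23 red animals lay above the DD median for each of these 4 genes. A protein with a GYF domain (NVE12207) differed by 0.59 and the uncharacterized NVE10095 by 0.75 on the log2 scale, with adjusted p of 0.000298 and 0.00015.

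Of the genes lower in red light, and of all genes, the smallest p belonged to cytochrome c oxidase assembly factor 5 (NVE7779), a protein of the mitochondrial intermembrane space needed to build the last complex of the respiratory chain. It had 12.3, 32.2 and 48.3 CPM in red light, against 29.00, 67.3 and 94.4 CPM in DD. All 23 red animals were below the DD median, and the 2 groups overlapped between 29.0 and 48.3 CPM. The log2 fold change was -1.05 ± 0.12 (adjusted p = 2.36e-07). An ATP synthase subunit (NVE21177) had 95.3, 232 and 419 CPM in red light, against 197, 405 and 742 CPM in DD (log2 fold change -0.99 ± 0.13, adjusted p = 7.13e-06). A dynein light chain (NVE15538), part of a microtubule motor, had 61.9, 118.2 and 263 CPM in red light, against 94.99, 239 and 596 CPM in DD (log2 fold change -1.003 ± 0.14, adjusted p = 2.03e-05). For both genes the upper red animals reached into the middle of the DD range.

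Thymosin beta 4 (NVE5400), which holds actin monomers, had 683, 961 and 1892 CPM in red light, against 983, 1844 and 2536 CPM in DD (log2 fold change -0.79 ± 0.12, adjusted p = 3.31e-05), and 1 of 23 red animals was above the DD median. An SH3 domain binding glutamic acid-rich protein (NVE15894) had medians of 246 CPM in red light and 387 CPM in DD (log2 -0.64 ± 0.09, adjusted p = 3.31e-05). The copper chaperone ATX1 (NVE24610) had medians of 86.6 CPM in red light and 137.1 CPM in DD (log2 -0.66 ± 0.11, adjusted p = 0.000211), and a phosphatidylethanolamine-binding protein (NVE24125) of 97.9 CPM in red light and 136.3 CPM in DD (log2 -0.64 ± 0.11, adjusted p = 0.000229). The uncharacterized NVE18114 and NVE5387 differed by -0.74 and -0.88 on the log2 scale, with adjusted p of 0.000123 and 0.000211.

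**Figure D2:**
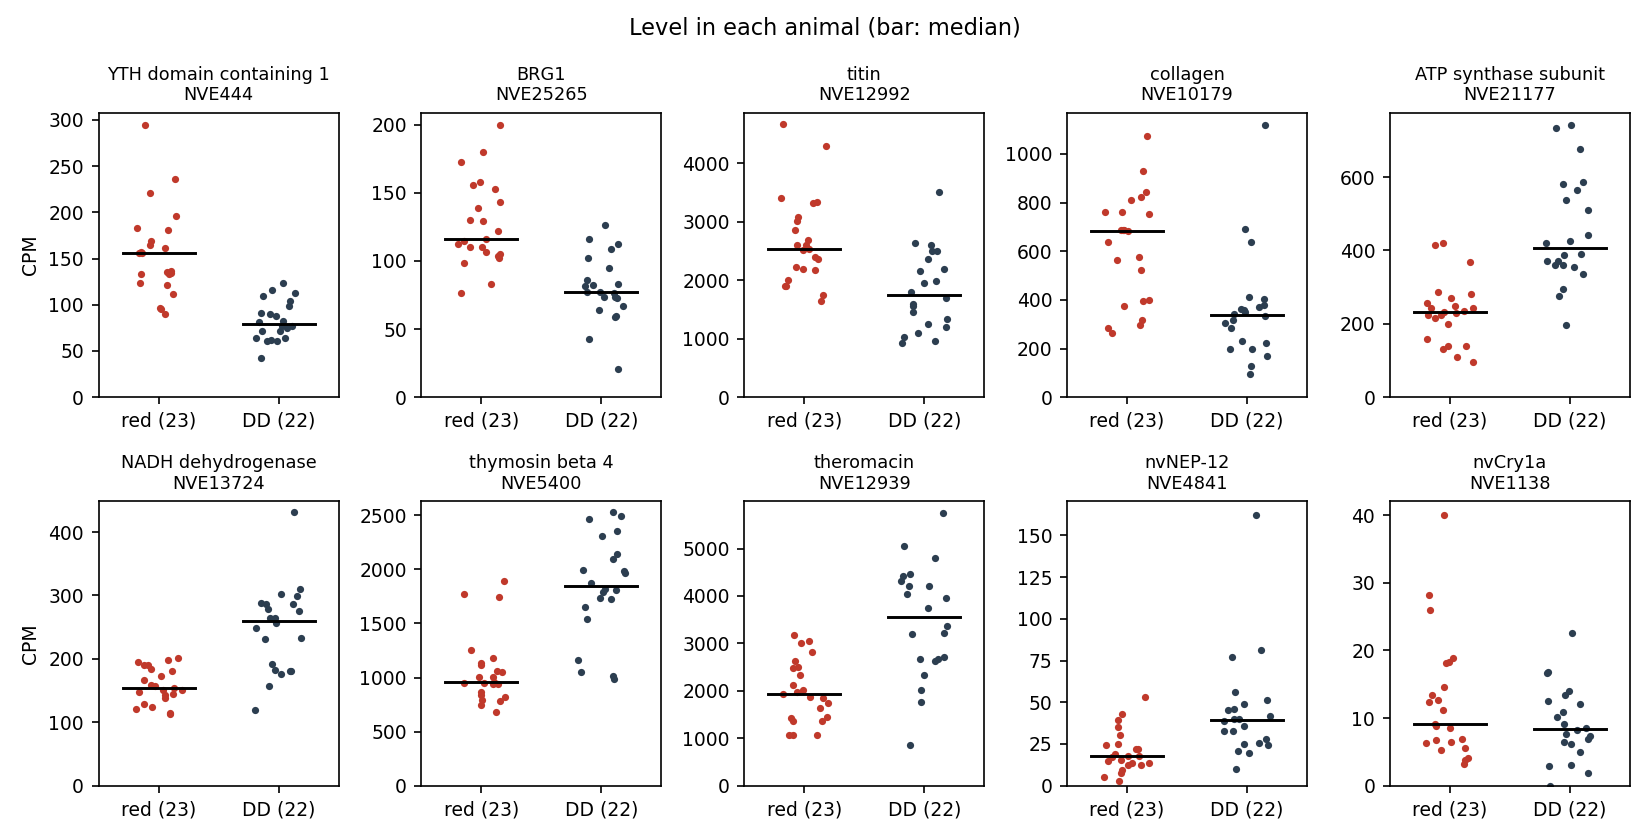
Level of 10 genes in CPM (linear axes from 0) in each of 23 red and 22 DD animals, with the median as a bar, red light on the left of each panel. Red animals lie mostly above DD animals for YTH domain containing 1, BRG1, titin and collagen, mostly below them for ATP synthase subunit, NADH dehydrogenase, thymosin beta 4, theromacin and nvNEP-12, and the groups overlap almost wholly for *nvCry1a*.

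The gene groups that follow were sorted by annotation. Annotations came only from the authors' lists of genes that differed in comparisons of these libraries. Group members said below to have no earlier listing for red light were listed in another of those comparisons, so they too were chosen from these data. Of 1352 annotated genes, 705 were called (52.1%), with 37.6% higher and 14.5% lower in red light and a median of 0.32 on the log2 scale. These shares, and not those of all genes, are the closer background for the counts of a group, and no group is independent evidence of its direction.

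The most uniform of the 18 groups was that of the mitochondrial respiratory chain and ATP synthase. Of 33 members, 25 were lower in red light, 0 were higher, and all 33 had a log2 fold change below 0 (median -0.43). The 25 came from every complex. In complex I, which takes electrons from NADH, NADH dehydrogenase NVE13724 had 112.9, 153 and 202 CPM in red light, against 119.6, 260.4 and 432 CPM in DD (log2 fold change -0.65 ± 0.11, adjusted p = 0.000211). All 23 red animals were below the DD median. NVE10291, of the same complex, had medians of 215 CPM in red light and 325 CPM in DD, and NVE15805 of 29.7 CPM in red light and 55.3 CPM in DD, with log2 fold changes of -0.62 and -0.88 (adjusted p = 0.000295 and 0.000298). Succinate dehydrogenase NVE14193, of complex II, had medians of 70.6 CPM in red light and 86.3 CPM in DD (log2 -0.40 ± 0.12, adjusted p = 0.031). A complex III subunit (NVE3014) had medians of 138.1 CPM in red light and 193 CPM in DD (log2 -0.56 ± 0.10, adjusted p = 0.000298), and cytochrome c oxidase NVE7371, of complex IV, of 141.6 CPM in red light and 215 CPM in DD (log2 -0.77 ± 0.14, adjusted p = 0.000394). The ATP synthase subunit NVE21177 described above had the largest difference of the group, while ATP synthase subunit b (NVE17883) had medians of 179 CPM in red light and 187 CPM in DD and was not called (log2 -0.12, adjusted p = 0.418).

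Summed over the 33 genes, the lowest, median and highest levels were 6225, 8025 and 11060 CPM in red light, against 7070, 9813 and 20350 CPM in DD. The red median was under the DD median, with wide overlap. The highest DD value was that of DD ZT2 replicate A, one of the 3 libraries that stood apart, and the next highest was 12400 CPM. The number called lower was 21 to 25 under every alternative that kept all replicates, except 12 when each library was thinned to 100000 counts, and it was 25 without any 1 library. Of the 33, 12 had no listing from an earlier comparison of red light with DD, and all 12 of these had a value below 0, with 4 called and a median of -0.16. Another comparison of this series had listed these 12, so they are not free of selection from these data.

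Among genes of protein synthesis, 14 of 37 ribosomal proteins were lower in red light and 0 were higher (median -0.21). The 16 without an earlier listing for red light had 1 called, 10 values below 0 and a median of -0.04. NVE2295 had 1025, 1947 and 2648 CPM in red light, against 1239, 2544 and 3827 CPM in DD (log2 fold change -0.50 ± 0.09, adjusted p = 0.000552), and NVE414 had medians of 1289 CPM in red light and 1689 CPM in DD (log2 -0.48 ± 0.10, adjusted p = 0.00209). Of 19 translation factors, 8 were higher and 2 lower (median 0.29), shares near those of annotated genes. Initiation factor 4 gamma (NVE12211), the scaffold that brings the ribosome to the messenger cap, had medians of 178 CPM in red light and 144 CPM in DD (log2 0.35 ± 0.10, adjusted p = 0.0214), while the initiation factor NVE18016 was lower, at 104.6 CPM in red light and 162 CPM in DD (log2 -0.60 ± 0.11, adjusted p = 0.000797). The ribosomal count was not stable. It was 2 with the number of detected genes as a covariate, 3 when the 3 shallow libraries were kept, 4 without a filter on low counts, 9 with library totals in place of TMM, and 21 without the 3 libraries that stood apart.

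Of 52 genes of actin and muscle, 27 were higher and 5 were lower in red light (median 0.38). Myosins, the motors that pull on actin, were the most frequent among the higher genes. Titin (NVE12992), the spring of striated muscle in other animals, had 1648, 2530 and 4673 CPM in red light, against 926, 1744 and 3513 CPM in DD (log2 fold change 0.57 ± 0.14, adjusted p = 0.00607), and 22 of 23 red animals were above the DD median. Striated muscle myosin heavy chain (NVE14552) had medians of 2602 CPM in red light and 1684 CPM in DD (log2 0.49 ± 0.10, adjusted p = 0.00168), and spectrin beta chain (NVE13015), of the net under the cell membrane, of 89.98 CPM in red light and 62.2 CPM in DD (log2 0.61 ± 0.12, adjusted p = 0.00103). The 5 lower genes were thymosin beta 4 (NVE5400), cofilin (NVE2539, -0.88), a subunit of the Arp2/3 complex (NVE563, -0.66), a calponin repeat protein (NVE7496, -0.31) and profilin (NVE10189, -0.30). Apart from the calponin repeat protein, they are known for controlling how actin monomers join and leave filaments. Other actin genes of the list did not follow them. A coronin and beta-actin were called higher, while twinfilin, the gelsolins and another coronin were not called. Profilin was at an adjusted p of 0.0651, and of 0.103 without DD ZT2 replicate C and 0.104 without red ZT18 replicate C. The 10 members without an earlier listing for red light had a median of -0.06, with 3 called.

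In the list of kinesins, dyneins and cilia, 6 of 23 genes were higher and 4 lower. The 6 were kinesins, which walk along microtubules. Kinesin NVE18267 had 83.1, 142.6 and 225 CPM in red light, against 42.7, 101.6 and 145 CPM in DD (log2 fold change 0.58 ± 0.13, adjusted p = 0.00349). The 4 lower genes were 3 dynein light chains (NVE15538, NVE8773 at -0.59 and NVE1943 at -1.03) and a protein annotated for cilia and flagella (NVE6627, -0.60). Both shares were below or near those of annotated genes, and the other 13 members were not called.

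In the list of collagens and matrix proteins, 10 of 29 were higher and 4 were lower (median 0.35), and the 11 without an earlier listing had 1 called and a median of 0.02. Both shares and the list median were near those of annotated genes. A collagen (NVE10179) had 266, 682 and 1076 CPM in red light, against 93.99, 337 and 1117 CPM in DD (log2 fold change 0.82 ± 0.19, adjusted p = 0.00455), and 1 DD animal had the highest level of all. Collagens NVE491 and NVE1443 had medians of 161 CPM in red light and 120.2 CPM in DD and of 24.7 CPM in red light and 11.96 CPM in DD (0.65 and 0.88 on the log2 scale, adjusted p = 0.00457 and 0.00865). Lower were the collagen NVE24874 (-0.71), a thrombospondin domain protein (NVE18538, -0.43), NVE24165 (-0.73) and NVE22573 (-0.59). The last of these had an adjusted p of 0.0617, but 0.136 without DD ZT18 replicate D and 0.119 without DD ZT22 replicate B. That of NVE24165 was 0.0579, but 0.112 without DD ZT2 replicate B, 0.117 without DD ZT6 replicate A and 0.113 without DD ZT22 replicate A.

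Chromatin genes were mostly higher, 15 of 27 with 1 lower (median 0.44). Histone-lysine N-methyltransferase NVE3571 had 162, 241 and 366 CPM in red light, against 113.6, 167 and 265 CPM in DD (log2 fold change 0.53 ± 0.10, adjusted p = 0.00094). The demethylases NVE24911 and NVE23290 had medians of 185 CPM in red light and 122.1 CPM in DD and of 85.2 CPM in red light and 54.8 CPM in DD (0.58 and 0.61 on the log2 scale, adjusted p = 0.00145 and 0.00158), so writers and erasers of histone methylation were both higher. The lower gene was a histone, H2A (NVE18284), with 0, 40.2 and 103.5 CPM in red light and 0, 89.2 and 244 CPM in DD (log2 fold change -1.13 ± 0.28, adjusted p = 0.00935). The 7 members without an earlier listing had 0 called and a median of -0.06. Outside the list, BRG1 (NVE25265), the motor of a nucleosome remodeler, had 76.5, 115.8 and 199.6 CPM in red light, against 20.4, 77.4 and 126.5 CPM in DD (log2 fold change 0.65 ± 0.12, adjusted p = 0.000797). A gene of the mixed-lineage leukemia family of histone methyltransferases (NVE13802) had medians of 191 CPM in red light and 120.1 CPM in DD (log2 0.61 ± 0.12, adjusted p = 0.000883).

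In the list of RNA polymerase and splicing genes, 10 of 22 were higher and 6 lower (median 0.29). The higher ones included the splicing kinase PRP4B (NVE3908, 0.68) and splicing factor 1 (NVE12557, 0.54), which recognizes the branch point. The lower ones included a branch site protein (NVE5296, -0.56) and a small nuclear RNA associated protein (NVE18337, -0.65). Their adjusted p ran from 0.00145 to 0.00164.

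In the ubiquitin and proteasome list, 11 of 33 were higher and 7 lower (median 0.32), close to the shares and the median of annotated genes. A ubiquitin specific peptidase (NVE10510), which removes ubiquitin, had 2.68, 19.4 and 56.3 CPM in red light, against 3.25, 8.80 and 20.1 CPM in DD (log2 fold change 1.16 ± 0.23, adjusted p = 0.00106). The conjugating enzyme for the ubiquitin-like modifier UFM1 (NVE7960) had medians of 20.5 CPM in red light and 33.6 CPM in DD (log2 -0.74 ± 0.14, adjusted p = 0.000946). Among 23 chaperones, 7 were lower and 2 higher (median -0.06). Chaperonin 10 (NVE18990), the lid of the mitochondrial folding chamber, had 53.4, 119.4 and 197 CPM in red light, against 59.8, 202 and 311 CPM in DD (log2 fold change -0.72 ± 0.14, adjusted p = 0.00106), and all red animals were below the DD median. A peptidyl-prolyl isomerase (NVE24992), which helps proline bonds turn during folding, had medians of 86.4 CPM in red light and 128.9 CPM in DD (log2 -0.49 ± 0.10, adjusted p = 0.00172). Of 4 HSP70 genes tested, 0 were called. NVE2172 and NVE4209 are genes of interest of the study, while NVE22525 and NVE13177 carry HSP70 names in its annotation. The third HSP70 gene of interest, NVE15435, had a mean count of 2.04 and was not tested. The 4 had log2 fold changes of -0.12 (NVE2172), 0.02 (NVE22525), 0.06 (NVE4209) and 0.28 (NVE13177). The smallest adjusted p of these 4 was 0.279, and all 95% intervals lay within -0.34 and 0.58.

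Genes of stinging cells were the group with the largest median difference. Nematocysts are the capsules that cnidarians fire at prey, and NEP genes are named for proteins found in them. Of 7 members, 5 were lower in red light and 0 higher (median -0.93). *nvNEP-12* (NVE4841) had 3.02, 17.8 and 53.3 CPM in red light, against 10.2, 39.2 and 162 CPM in DD (log2 fold change -1.10 ± 0.23, adjusted p = 0.00213), and 20 of 23 red animals were below the DD median. *nvNEP-2* (NVE1850) had medians of 38.97 CPM in red light and 70.4 CPM in DD (log2 -0.99 ± 0.23, adjusted p = 0.00586), *nvNEP-14* (NVE17430) of 37.5 CPM in red light and 76.6 CPM in DD (log2 -0.93 ± 0.25, adjusted p = 0.0164), and *nvNEP-11* (NVE9331) of 567 CPM in red light and 756 CPM in DD (log2 -0.41 ± 0.10, adjusted p = 0.00961). A gene with an ShK-like toxin domain (NVE21776) had 0, 7.63 and 22.7 CPM in red light, against 0, 16.1 and 173 CPM in DD (log2 fold change -1.80 ± 0.38, adjusted p = 0.00186). NVE1718, annotated both as the toxin NV7 and as part of a PIWI gene, and *nvNEP-16a* (NVE8847) were not called, at -0.27 and 0.07. These 2 were the only members without an earlier listing for red light, with a median of -0.10. All 5 called members had such a listing. Summed over the 7 genes, levels were 484, 715 and 1106 CPM in red light, against 669, 1093 and 1533 CPM in DD. The ranges of the 2 groups overlapped between 669 and 1106 CPM, and whether red animals had fewer stinging cells was not tested.

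Other tissue lists moved less uniformly. In the list of digestive enzymes, 4 of 21 were higher and 1 lower (median 0.18). Among the 11 without an earlier listing for red light, 1 was called, 7 values were below 0 and the median was -0.11. The higher genes included trypsin (NVE25777, medians of 1224 CPM in red light and 889 CPM in DD, log2 0.41 ± 0.13, adjusted p = 0.0403), chymotrypsin (NVE9071, 0.33) and a carboxypeptidase (NVE13250, 0.73). The lower gene, chitotriosidase (NVE9104, -0.60), digests chitin. Its adjusted p was 0.0578, but 0.112 without DD ZT14 replicate B and 0.102 without DD ZT22 replicate B. In the list of neuropeptides and synapse, 7 of 20 were higher and 1 lower (median 0.37). The share higher and the median were near those of annotated genes, and the share lower was below theirs. The 6 members without an earlier listing for red light had 0 called and a median of 0.16. Higher were calcium channels NVE5017 (0.75) and NVE4666 (0.97) and the vesicle-priming protein unc-13 (NVE16780, 0.41). The lower one was a neuropeptide signaling gene (NVE10469, -1.33, adjusted p = 0.0232).

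Of 11 yolk and germ line genes, 6 were higher and 1 lower (median 0.42). Among the 5 without an earlier listing for red light, 1 was called, 4 values were below 0 and the median was -0.27. The 2 vitellogenin genes, for egg yolk protein, went opposite ways. Vitellogenin II precursor (NVE6181) had 3.20, 18.5 and 38.3 CPM in red light, against 3.44, 9.77 and 18.4 CPM in DD (log2 fold change 0.72 ± 0.20, adjusted p = 0.0218), and vitellogenin precursor (NVE6616) had 110.5, 226 and 517 CPM in red light, against 128.2, 300.0 and 709.8 CPM in DD (log2 fold change -0.47 ± 0.16, adjusted p = 0.0627). The call of the lower one was lost without DD ZT14 replicate B (adjusted p = 0.105) or DD ZT18 replicate B (0.101). A gametogenetin binding protein (NVE19667, 0.67) and a tudor domain gene (NVE21198, 0.70) were among the higher genes.

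Among genes of innate defense, theromacin (NVE12939), named for an antimicrobial peptide of leeches, had 1064, 1935 and 3187 CPM in red light, against 847, 3557 and 5747 CPM in DD. All 23 red animals were below the DD median, although the lowest value of all came from a DD animal. The log2 fold change was -0.83 ± 0.15 (adjusted p = 0.000394). In the innate immunity list, 5 of 15 were higher and 3 lower (median 0.33), again close to annotated genes. Macrophage migration inhibitory factor (NVE3446) was lower, with medians of 129.2 CPM in red light and 215 CPM in DD (log2 -0.61 ± 0.12, adjusted p = 0.000883). A lectin-linked serine peptidase (NVE16646, -1.03) had an adjusted p of 0.0512, and of 0.138 without DD ZT22 replicate B. TNFAIP3-interacting proteins, which dampen inflammatory signaling in mammals, were higher in both copies listed, NVE25366 at 0.62 and NVE19849 at 0.38 (adjusted p = 0.00118 and 0.0155).

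In the list named antioxidant enzymes, 2 of 6 genes were lower, both of them thioredoxins. NVE13150 had 21.2, 52.9 and 74.6 CPM in red light, against 42.7, 78.6 and 121.7 CPM in DD (log2 fold change -0.63 ± 0.11, adjusted p = 0.000341), and NVE9896 had 602, 779 and 993 CPM in red light, against 632, 1018 and 1357 CPM in DD (log2 fold change -0.41 ± 0.08, adjusted p = 0.000797). All red animals were below the DD median for both genes. Peroxidasin (NVE530) was higher at 0.70 with an adjusted p of 0.0825, a call that held in 27 of the 45 fits that left out 1 library, with up to 0.126 in the others. Catalase (NVE22156), which breaks down hydrogen peroxide, was not called (log2 0.22, adjusted p = 0.174).

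Some counts of these groups moved by more than 1.5 times with scaling. With library totals in place of TMM, 10 kinesins and related genes, 17 ubiquitin and proteasome genes, 11 synapse genes, 6 digestive enzymes and 4 chaperones were called higher, and 3 actin and muscle genes were called lower. With the number of genes detected as a covariate, 1 collagen or matrix gene was called lower, 1 digestive enzyme and 3 yolk and germ line genes were called higher, and the lower calls among digestive enzymes, synapse genes and yolk genes were lost.

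**Figure D3:**
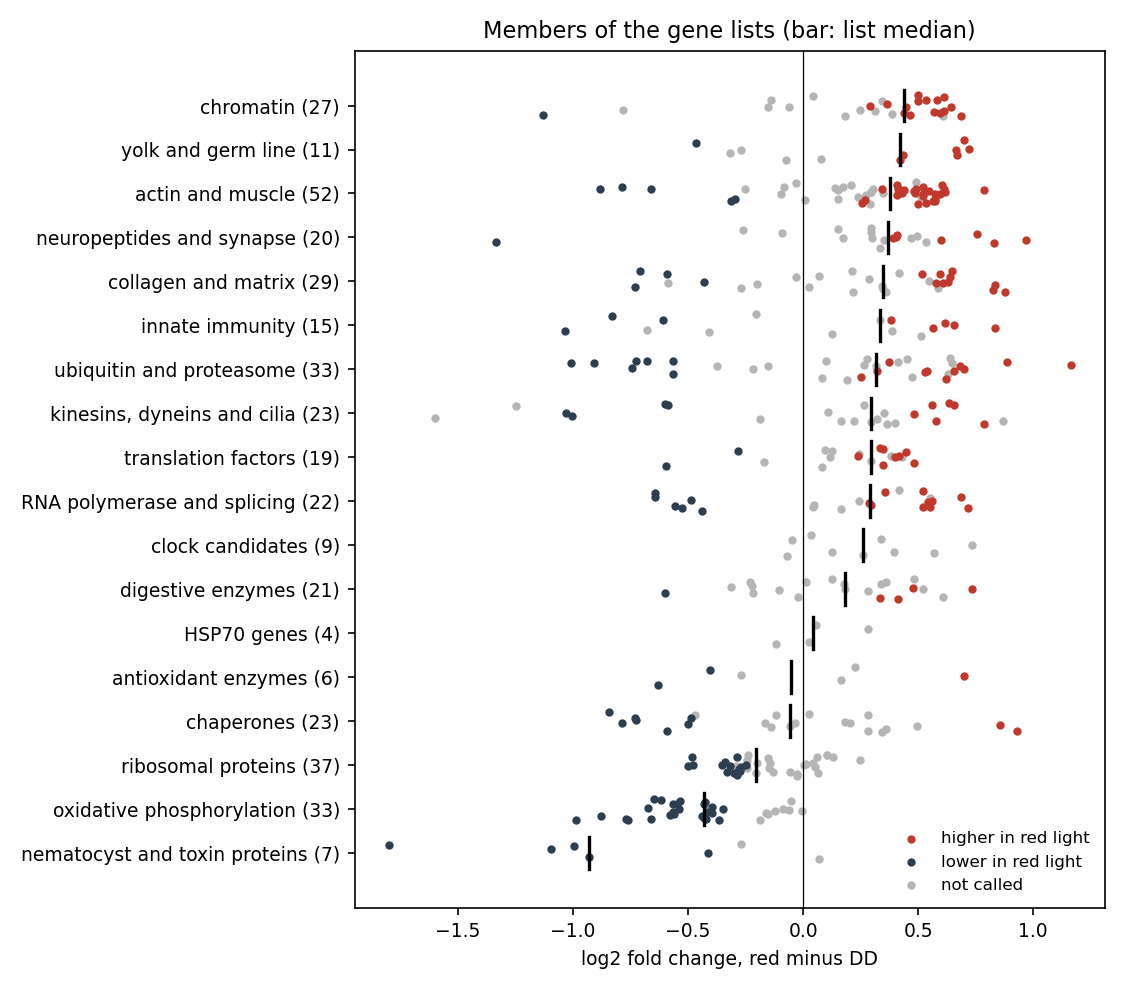
Log2 fold change of red light minus DD (horizontal axis) for each tested member of 18 gene lists, with the number of members in brackets, genes called higher in red light in red, genes called lower in dark blue, others in grey, and the list median as a bar. All 33 oxidative phosphorylation genes lie below 0, and nematocyst and toxin proteins have the lowest median (-0.93), while chromatin genes have the highest (0.44).

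The hours of red light and the hours of shared darkness were then examined apart. In the photoperiod (ZT2, 6 and 10), 536 genes (5.51%) differed between red light and DD, 310 higher (3.19%) and 226 lower (2.33%). In the scotoperiod (ZT14, 18 and 22), when both groups were in the dark, 82 genes (0.844%) differed, 37 higher (0.381%) and 45 lower (0.463%). No library is in both parts of the day. Of the 310 genes higher in the photoperiod, 262 (84.5%) had the same sign in the scotoperiod, and 33.2% had the same sign with an unadjusted p under 0.05, against 1 gene with the opposite sign. Of the 226 lower genes, 204 (90.3%) had the same sign, and 46.9% had it with an unadjusted p under 0.05, against 1 gene with the opposite sign. Over all genes tested, 64.7% had the same sign in both parts, 10.1% had it with an unadjusted p under 0.05 in the scotoperiod, and 162 genes had the opposite sign at that p. The differences were smaller in the part of the day that had not chosen the genes, with medians of 0.32 and -0.39 in the scotoperiod, beside 0.83 and -0.77 in the photoperiod.

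The difference between the 2 parts of the day was itself tested and called for 0 genes by edgeR (509 at an unadjusted p under 0.05) and for 1 by DESeq2. A test of any variation of the red minus DD difference over the 6 times also called 0 by edgeR (445 at an unadjusted p under 0.05) and 0 by DESeq2. The larger count in the photoperiod therefore does not show that the difference was tied to the hours of light. Without 1 replicate letter at a time, the photoperiod count was 60 to 278 and the scotoperiod count was 7 to 42.

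Single genes show both steady and uneven differences. YTH domain containing 1 (NVE444) was higher by 0.77 ± 0.17 in the photoperiod and by 1.01 ± 0.17 in the scotoperiod (adjusted p = 0.0124 and 0.00215). COX assembly factor 5 (NVE7779) differed by -1.09 ± 0.17 and -1.02 ± 0.17 (adjusted p = 0.00168 and 0.00208), and ATP synthase subunit NVE21177 by -1.09 and -0.95. For all 3 genes the difference was present by day and by night. Helicase domino (NVE743), a chromatin remodeler first described in Drosophila, was at 1.14 ± 0.20 in the photoperiod (adjusted p = 0.00253) and at 0.41 ± 0.19 in the scotoperiod (adjusted p = 0.391). A ubiquitin conjugating enzyme (NVE14817) had the reverse pattern, -0.33 ± 0.18 in the photoperiod (adjusted p = 0.341) and -1.17 ± 0.19 in the scotoperiod (adjusted p = 0.00208). For neither gene did the test of variation over the 6 times pass (adjusted p = 1.00 for both).

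At single times, with 3 or 4 animals a group, edgeR called 87 genes (0.895%) at ZT2, 76 higher (0.782%) and 11 lower (0.113%), and 0 at each of the other 5 times, where 592 to 785 genes had an unadjusted p under 0.05 and DESeq2 called 0.0412% to 1.22% of genes. At ZT2 the smallest p belonged to the unannotated NVE4428, the uncharacterized NVE3708 and the collagen NVE491, with log2 fold changes of 1.97, 1.58 and 1.64 (adjusted p = 0.0129, 0.0373 and 0.0373). Averaged over the day, NVE4428 was not called (log2 0.21, adjusted p = 0.526), and NVE3708 was (log2 0.69 ± 0.14, adjusted p = 0.00145). The ZT2 calls rested on few libraries. None remained without red ZT2 replicate B, DD ZT2 replicate A and red ZT10 replicate D, or without replicate B or replicate C of each time, when 758 to 1120 genes still had an unadjusted p under 0.05.

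**Figure D4:**
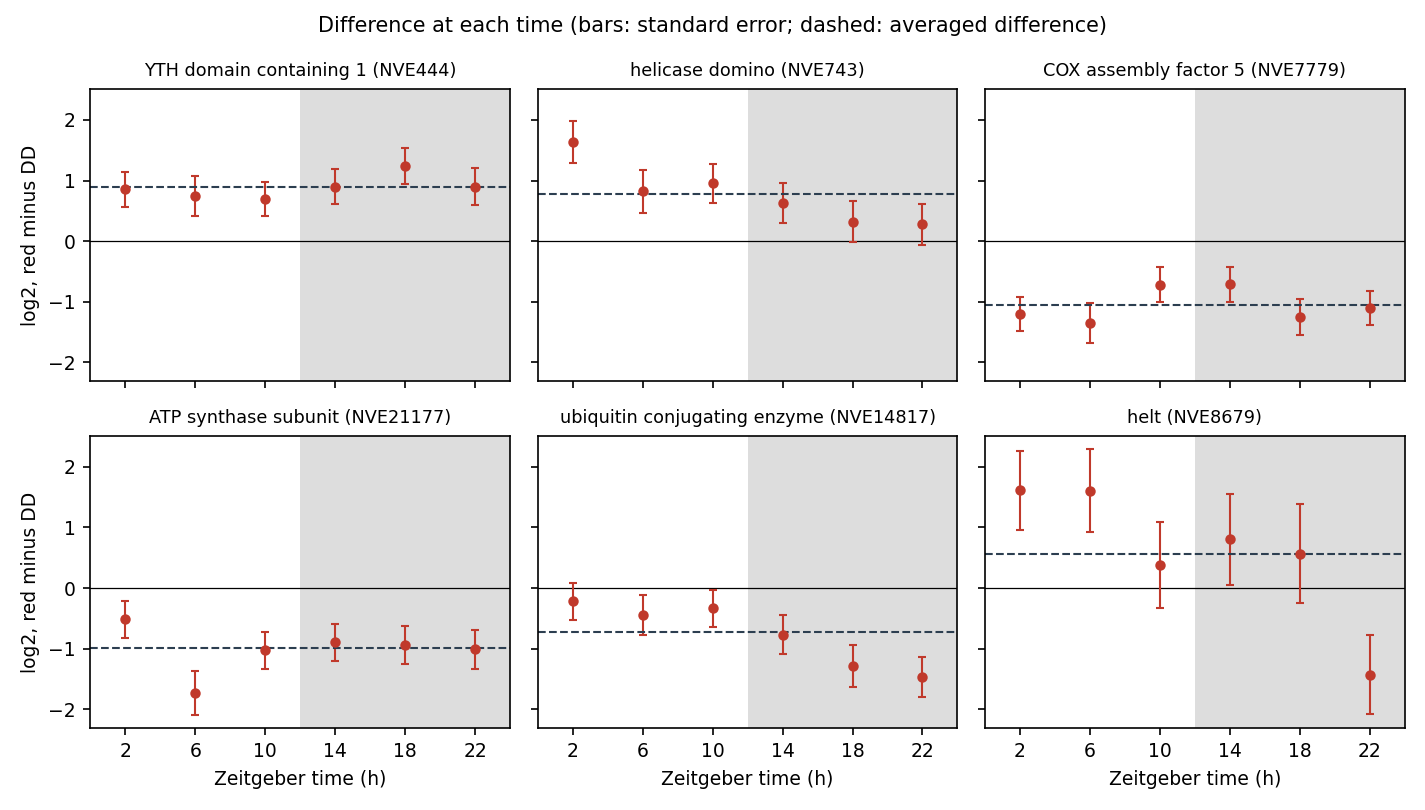
Log2 fold change of red light minus DD for 6 genes at each Zeitgeber time in hours, with standard errors as bars, the scotoperiod shaded and the averaged difference as a dashed line. YTH domain containing 1, COX assembly factor 5 and ATP synthase subunit keep 1 sign at all 6 times, and helt runs from 1.61 at ZT2 to -1.43 at ZT22.

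The clock candidates showed no called difference between red light and DD. Of 9 tested genes, 8 of them genes of interest of the study and NVE5408 a bZIP gene that its annotation calls similar to *nvPAR-bZIPa*, 0 were called between red light and DD. Their median log2 fold change was 0.26, beside 0.32 for annotated genes and 0.00 for all genes. Cryptochrome *nvCry1a* (NVE1138) had 3.20, 9.07 and 40.02 CPM in red light, against 0, 8.35 and 22.6 CPM in DD, so the groups overlapped almost wholly (log2 0.40, 95% interval -0.13 to 0.92, adjusted p = 0.408). *nvCry1b* (NVE24214) was at -0.05 (-0.36 to 0.26). Of the PAR-bZIP factors, *nvPAR-bZIPa* (NVE14677) was at 0.34 (-0.29 to 0.96), *nvPAR-bZIPb* (NVE20636) at 0.03 (-0.25 to 0.32) and *nvPAR-bZIPc* (NVE8107) at 0.26 (-0.27 to 0.78), and the similar bZIP gene NVE5408 was at -0.07 (-0.42 to 0.28). *nvTimeout* (NVE19057), whose relatives act in the Drosophila clock and in DNA replication, was at 0.13 (-0.24 to 0.49). The intervals of *nvCry1a*, *nvPAR-bZIPa* and *nvPAR-bZIPc* reached past 0.55, the median size of a called higher gene, so these intervals include differences of that size.

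The largest value of the clock candidates was that of the CLOCK-interacting pacemaker *nvCiPC* (NVE4116), whose mammalian counterpart represses CLOCK. It had 3.53, 14.9 and 37.8 CPM in red light, against 0, 9.24 and 27.7 CPM in DD, and 17 of 23 red animals were above the DD median. Its log2 fold change was 0.74 ± 0.28 (adjusted p = 0.101), just outside 10% FDR, and it was called in 6 of 18 alternatives and in 14 of 45 fits that left out 1 library. For *nvhelt* (NVE8679), a repressor of the HES/HEY kind, the values were 3.20, 18.8 and 118.2 CPM in red light, against 0, 13.6 and 42.8 CPM in DD (log2 0.57 ± 0.31, adjusted p = 0.295). In the photoperiod alone it was higher in red light by 1.20 ± 0.39 (adjusted p = 0.0886), beside -0.02 in the scotoperiod (adjusted p = 0.999). The difference between those values was not called.

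Red light was also set against blue and green light, in a fit of all 93 libraries of enough depth in which the 3 colors share the DD libraries. With levels scaled over those libraries, *nvCry1a* had 3.20, 8.82 and 39.2 CPM in red light, 0, 37.9 and 104.3 CPM in blue, 6.54, 19.1 and 35.2 CPM in green and 0, 8.36 and 22.7 CPM in DD. Red light minus the mean of blue and green, which uses no DD library, came to -1.16 ± 0.20 log2 units (adjusted p = 6.64e-05). For *nvPAR-bZIPa* the medians were 15.01 CPM in red light, 56.9 in blue, 36 in green and 9.54 in DD, and red light minus the other colors was -1.68 ± 0.24 (adjusted p = 7.02e-07). *nvhelt* differed by -1.25 ± 0.24 and NVE5408 by -1.10 ± 0.18 (adjusted p = 0.00087 and 1.96e-05). For all 4 genes the median level in red light was below those in blue and green light. Set against blue alone, all 4 were lower in red light (-1.62, -1.94, -1.56 and -1.51, with adjusted p of at most 4.19e-05). Set against green alone, *nvPAR-bZIPa* was lower (-1.41 ± 0.26, adjusted p = 0.00503), but *nvCry1a* (-0.70 ± 0.22, adjusted p = 0.444), *nvhelt* (-0.95 ± 0.27) and NVE5408 (-0.68 ± 0.19, adjusted p = 0.254 for both) were not called. *nvClock* (NVE2080) and *nvPAR-bZIPd* (NVE8085) had mean counts of 2.20 and 0.822 over the red and DD libraries and were not tested between them. They passed the filter over 4 conditions through the other colors, so their levels are given without a test. *nvPAR-bZIPd* had 0, 1.47 and 12.99 CPM in red light, 10.1, 123.98 and 596 CPM in blue, 0, 6.66 and 18.8 CPM in green and 0, 0 and 5.73 CPM in DD. *nvClock* had medians of 5.65 CPM in red light, 11.6 in blue, 9.05 in green and 3.57 in DD.

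**Figure D5:**
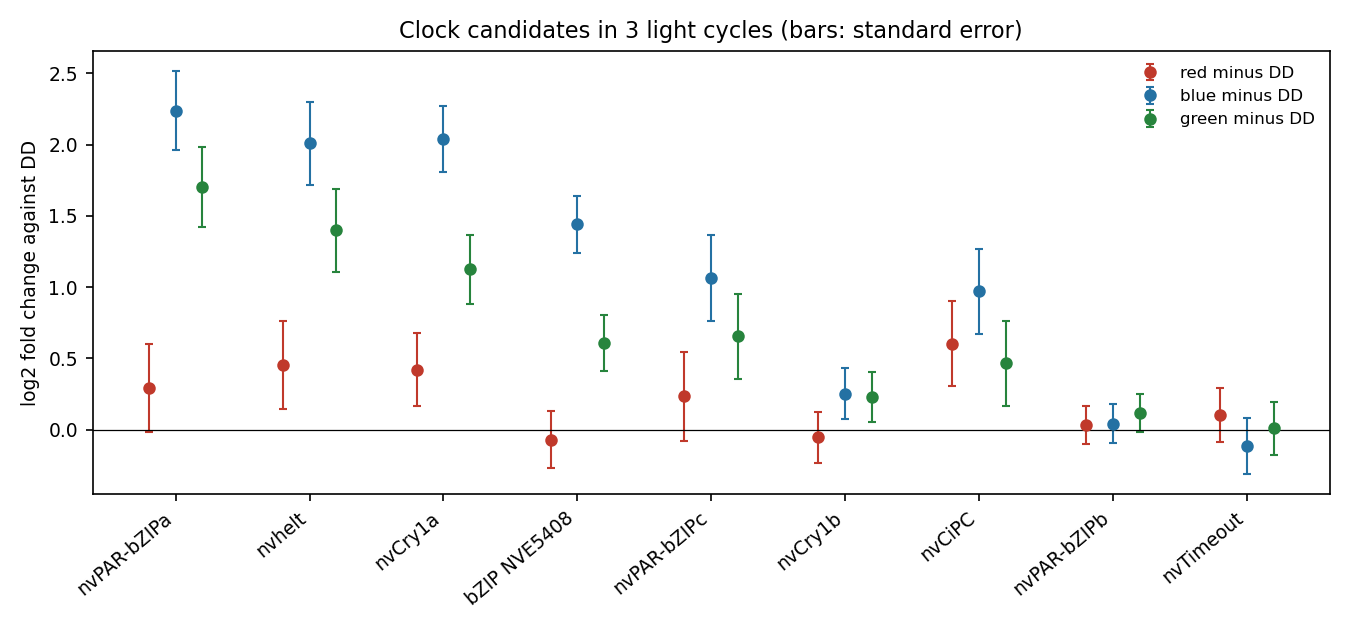
Log2 fold change against DD of 9 clock candidates in red (left point of each gene), blue and green light, with standard errors as bars, from the fit of 93 libraries in which all colors share the DD animals. For *nvPAR-bZIPa*, *nvhelt*, *nvCry1a*, NVE5408, *nvPAR-bZIPc* and *nvCry1b* the red point lies below the blue and green points, and for *nvPAR-bZIPb* and *nvTimeout* the 3 points lie close together.

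Over all 9597 genes of that fit, red light differed from the mean of blue and green for 82 (0.854%), 16 higher (0.167%) and 66 lower (0.688%). Among the 1359 annotated genes, the share was 3.53%, with 0.736% higher and 2.8% lower. Of the 82 genes, 7 were not tested between red light and DD, *nvClock* and *nvPAR-bZIPd* among them. These 7 passed the count filter only through the other colors, so a lower value in red light is partly built in for them. Set against each color alone, red light minus blue called 253 genes (2.64%), 90 higher (0.938%) and 163 lower (1.7%), and red light minus green called 7 (0.0729%), 0 higher and 7 lower (0.0729%). The smallest p belonged to heme binding protein 2 (NVE9601), at -1.48 ± 0.15 (adjusted p = 1.19e-12), and a cell adhesion protein related to Sym32 (NVE4355) was at -1.35 ± 0.18 (adjusted p = 1.83e-07). Both were also lower against green alone, at -0.79 and -0.89 (adjusted p = 0.0161 and 0.0417). Neither differed between red light and DD at 10% FDR, with log2 fold changes of -0.05 and 0.19 (adjusted p = 0.903 and 0.68). For the genes called between red light and DD, the other colors had smaller values in the same direction. The 596 higher genes in that fit had medians of 0.54 (red), 0.30 (blue) and 0.36 (green), each minus the shared DD libraries, and the 571 lower genes had -0.53 (red), -0.33 (blue) and -0.36 (green). Since the genes were chosen by the red difference, a smaller value in the other colors is partly built in.

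The oxidative phosphorylation genes were also set against the other colors. Of 33 members, 10 were lower in red light than in the mean of blue and green and 0 were higher, beside the 2.8% of annotated genes and 0.688% of all genes that were lower. Against blue alone 13 were lower, and against green alone 0 were, with medians of -0.34 and -0.23. Succinate dehydrogenase NVE1879 had 77.8, 119.7 and 154 CPM in red light, 130.9, 204 and 322 CPM in blue, 72.3, 122.3 and 183 CPM in green and 78.3, 132.6 and 192 CPM in DD, and differed by -0.48 ± 0.09 (adjusted p = 0.000367). Its high values were those of blue light, and between red light and DD it was not called (log2 -0.16, adjusted p = 0.344). The others included NVE14193 of complex II (-0.49), NVE4433 of complex III (-0.40), NVE20067 of complex I (-0.43), cytochrome c oxidase NVE10576 (-0.52) and ATP synthase subunit NVE21177 (-0.49), with adjusted p from 0.00482 to 0.0741. In the comparison with green alone their adjusted p ran from 0.462 (NVE21177) to 0.831 (NVE14193). Blue light minus DD was 0.41 for NVE14193, 0.14 for NVE4433, 0.22 for NVE20067, 0.22 for NVE10576 and -0.44 for NVE21177. NVE12527 (-0.37) and NVE22511 (-0.56), also among the 10, were at 0.60 and 0.64 in blue light minus DD. Between red light and DD these 2 genes were not called (log2 -0.05 and -0.19). Against DD, the medians of the 33 genes were -0.43 (red), -0.19 (blue) and -0.23 (green), values that share the DD libraries.

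Of the 16 genes higher in red light than in the other colors, 3 are described. A poly(ADP-ribose) polymerase family gene (NVE20880), of enzymes that mark proteins at DNA damage and in defense against viruses in mammals, was at 0.59 ± 0.12 against the other colors (adjusted p = 0.00232) and at 0.51 ± 0.15 against DD (adjusted p = 0.0315). An NFX1-type zinc finger gene (NVE18649) was at 0.57 and 0.74, and a helicase with zinc finger (NVE17724) at 0.52 and 0.59, with adjusted p between 0.00255 and 0.0137 for both comparisons. Against green alone the 3 genes were not called, at 0.41, 0.39 and 0.53 (adjusted p = 0.462, 0.493 and 0.102). The zinc finger gene NVE18649 had 259, 507 and 1075 CPM in red light, against 169, 294 and 667 CPM in DD, with 21 of 23 red animals above the DD median.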

How the data were processed

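Libraries were made from whole adults with a tag-based method that reads the 3′ ends of transcripts. The authors trimmed reads with FastX, removed duplicates, mapped them with Bowtie2 to a *Nematostella* transcriptome and kept reads of a single gene; the deposited values are raw counts per gene and library. Reads of near-identical genes were dropped by that rule, so their counts may be too low.

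Counts of 45 libraries were scaled by TMM factors and fitted with edgeR 4.0.16 (R 4.3.3, limma 3.58.1) by the quasi-likelihood F test with light and time as main effects, two-sided, with Benjamini-Hochberg adjustment over all genes tested at 10% FDR. Contrasts of time came from 12 groups of light and time, and contrasts among colors from an additive fit of 93 libraries. Levels are TMM-scaled CPM computed from the deposited counts, and differences are log2 with standard errors and 95% intervals. Nothing said that replicates came from separate dishes, so p-values measure the spread between animals. The labels gave a letter for each replicate and did not say whether letters pair animals, and the main fit used no pairing. The correlation of deviations between red and DD animals of the same letter and time ran from -0.184 to 0.34 over 21 pairs.

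Named genes were, of those called, the 8 with the smallest p in each direction and the 8 among annotated genes, the genes of interest of the study, up to 4 per list and up to 3 per other contrast. Another 28 named genes were picked with their values in view. The comparison, members and lists were chosen with earlier results of these data known. Names came from the study's annotation. Alternatives were DESeq2 1.42.0, limma-voom, RLE factors, other filters, thinning to 100000 counts, other designs, a replicate block and libraries left out. Those added after seeing the data were library totals in place of TMM, the number of genes detected as a covariate, a filter over 93 libraries, red light set against blue or green alone, and leaving out the 3 libraries that stood apart. The fits were tested on simulated data. Lists of the authors' own comparisons were used for names and to mark the group members that had an earlier listing for red light. No values were taken from them.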

Additional observations from a re-analysis of the deposited data

Results flagged for a closer look

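The 20 top genes took 40.4% of the counts of DD ZT2 replicate A, far from the other DD libraries of ZT2 (14.3% to 16.78%). Of 27 groups of libraries checked in this way, that of DD ZT2 replicate A was the only one flagged, and chance flags about 1 in 20 groups. In red ZT2 replicate B the 20 top genes took 33.2%.

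Several named genes differed between red light and the other colors, by the test of red light minus the mean of blue and green (edgeR's quasi-likelihood test, 10% FDR). Among the clock candidates these log2 differences were -1.16 for *nvCry1a* (NVE1138), -1.68 for *nvPAR-bZIPa* (NVE14677), -1.25 for *nvhelt* (NVE8679) and -1.10 for the bZIP gene NVE5408. Among the genes of oxidative phosphorylation they were -0.49 for ATP synthase subunit NVE21177, -0.49 and -0.48 for the succinate dehydrogenases NVE14193 and NVE1879, -0.40 for NVE4433 of complex III, -0.52 for cytochrome c oxidase NVE10576 and -0.43 for NADH dehydrogenase NVE20067. Others lower in red light were heme binding protein 2 (NVE9601, -1.48), the adhesion protein NVE4355 (-1.35), dynein light chain NVE15538 (-0.66), chaperonin 10 (NVE18990, -0.48) and the ubiquitin conjugating enzyme NVE14817 (-0.50). Higher in red light were the poly(ADP-ribose) polymerase NVE20880 (0.59), the zinc finger gene NVE18649 (0.57) and the helicase NVE17724 (0.52). Of these genes, *nvPAR-bZIPa*, NVE9601 and NVE4355 also differed between red light and green alone, and the others did not at 10% FDR, while all of them differed between red light and blue alone.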

How the results depend on the processing

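The number of genes differing between red light and DD, 1178, stayed within 1.5 times under the alternatives except that it was 647 without a filter on low counts, 231 at 100000 counts a library and 493 to 1292 with a replicate letter or 1 library left out (lowest without letter D, highest without DD ZT2 replicate A). With the replicate block it was 1138. The photoperiod count of 536 became 188 without a filter and 60 to 278 without a letter. The scotoperiod count of 82 became 247 with DESeq2, 36 without a filter, 177 at a mean count of 10 and 7 to 42 without a letter. The count for photoperiod minus scotoperiod, 0, became 1 with DESeq2, 3 without a filter, 7 with the replicate block and 0 to 8 without a letter. That of variation over the 6 times, 0, became 1 with the block and 0 to 2 without a letter. At single times the values are percents of genes tested. That of ZT2, 0.895%, became 2% with DESeq2, 0.0514% without a filter, 3.69% at a mean count of 10, 0 without the 3 libraries that stood apart and 0 to 1.92% without a letter. At the other times, with 0 calls, DESeq2 called 1.22% at ZT6, 0.226% at ZT10, 0.0412% at ZT14, 0.566% at ZT18 and 0.103% at ZT22. No filter gave 0.0214% at ZT6 and at ZT18, a mean count of 10 gave 0.292% at ZT6, 0.0225% at ZT10 and 0.405% at ZT18, RLE factors gave 0.0309% at ZT6, and the block gave 0.0823% at ZT18 and 0.0617% at ZT22. Letters left out gave 0 to 0.0411% at ZT6, 0 to 0.0203% at ZT18 and 0 to 0.0407% at ZT22. The count against the other colors, 82, became 168 with DESeq2, 253 against blue alone, 7 against green alone and 32 to 146 without a letter. The replicate block changed no other count by more than 1.5 times. Of the named genes, 94 were called, 74 kept the call under every alternative but thinning and a letter left out, 42 under every alternative, and 0 of them reversed. Genes that reversed were near 0 and not called. *nvCry1b* (NVE24214) was at 0.01338 with limma-voom, 0.0805 when thinned, 0.0191 with library totals and -0.0933 to 0.0668 with libraries left out. *nvPAR-bZIPb* (NVE20636) was at -0.0436 to 0.12 and *nvTimeout* (NVE19057) at -0.0748 to 0.22 with libraries left out, and *nvTimeout* at -0.11 with detected genes as a covariate. NVE5408 was at 0.0143 with library totals, 0.002529 without the 3 libraries that stood apart and -0.23 to 0.21 with libraries left out. NVE4209 was at -0.0595 without those 3, -0.0009131 with the covariate and -0.17 to 0.21 with libraries left out. NVE22525 was at -0.008959 when thinned, -0.11 without those 3 and -0.0615 to 0.11 with libraries left out. NVE9601 was at 0.12 when thinned, 0.0295 with library totals and -0.24 to 0.0337 with libraries left out, and NVE1879 at 0.0383 when thinned. *nvNEP-16a* (NVE8847) was at -0.002164 with limma-voom, -0.01997 with the covariate and -0.16 to 0.19 with libraries left out. NVE1718 was at 0.0129 with DESeq2, 0.0327 with 12 groups, 0.0281 with the covariate and -1.54 to 0.0903 with libraries left out. The cause of these changes was not tested.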
